A study of Mus musculus with 4 samples.

Results

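A set of 50 genes of the cell cycle and of DNA replication were followed in regulatory T cells (Tregs) that lacked or carried the microRNA miR-142. They were taken by gene symbol, 26 that act in G1 and S phase (G1/S) and 24 that act in G2 and mitosis (G2/M). The rule used symbols and not measured values, but the choice of these genes was made with earlier results of these data known. A probe set with that symbol alone was found for 48 of the 50, 25 of them G1/S and 23 G2/M, out of 22180 gene symbols on the array. Ccne2 (cyclin E2) and Ccnb1 (cyclin B1) had none. Rrm2 had 2 probe sets and each of the other 47 genes had 1.

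The cells came directly from spleens and lymph nodes of C57BL/6 mice, were enriched for CD4 and were sorted as CD4+ CD25+ YFP+ cells to a purity above 95%. TregΔ142 mice were FoxP3YFP-Cre x Mir142fl/fl, in which the Cre driven by the Foxp3 locus deletes both floxed Mir142 copies, and WT mice were FoxP3YFP-Cre x Mir142+/+. Both groups therefore carried the same Cre, a fusion with yellow fluorescent protein that labels the cells expressing it. Each group had 2 arrays, made from populations that were processed separately. The sources used here do not say whether these were separate animals, or their age, so a p-value measures the spread among these 4 samples alone, and that spread may be technical. No treatment was given. With 2 arrays against 2, an exact permutation test cannot go below p = 0.333, so the tests below come from a limma fit over all 23521 probe sets with 1 symbol.

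A dividing T cell passes through G1, in which D-type cyclins with CDK4 or CDK6 inactivate the retinoblastoma protein and release E2F factors, and CDK inhibitors oppose this step. E2F factors then drive genes for nucleotide synthesis and for the origin licensing and helicase proteins of S phase. Genes of G2 and mitosis are switched on later, by complexes that bind the cell cycle homology region of their promoters. Tregs taken from tissue are known to hold a fraction of cycling cells, so bulk RNA of these genes carries both how many cells are in cycle and how much RNA each holds, and these cannot be told apart here.

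The labels were checked first on Mir142 itself. Its probe set stood at 6.44 and 5.96 in TregΔ142 replicates 1 and 2, against 8.88 and 9.26 in WT replicates 1 and 2, on the log2 scale that holds for every value below. The groups did not overlap, and the difference was −2.87 ± 0.20 (SE, n = 2 each; adjusted p = 0.0219). The sources used here do not place this probe set relative to the deleted stretch. Foxp3 stood at 11.84 and 11.81 in TregΔ142 and at 11.70 and 11.67 in WT. The 8 markers examined were of Tregs (Foxp3, Il2ra, Ctla4, Ikzf2 and Tnfrsf18) and of T cells more widely (Cd4, Cd3e and Cd3g). All were measured at levels of 9.72 or more on every array. Of these 8, 6 stood above WT on both TregΔ142 arrays (75%, against 23.9% of all tested probe sets), and Cd3e and Cd4 overlapped. At an unadjusted p below 0.05, 2 were higher (25%, against 6.82%), namely Tnfrsf18 by 0.57 and Il2ra by 0.42, and 0 were lower. The part of this shift in the values of the cell cycle genes was not tested. Array medians over all rows lay between 6.16 and 6.22.

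No measured cell cycle gene passed an adjusted p of 0.05, which 6 of the 23521 probe sets did (0.0255%). Short of that threshold, 2 patterns were seen. In G1, Cdk6 and the CDK inhibitor genes Cdkn1a and Cdkn2c stood above WT on both TregΔ142 arrays by amounts larger than the gaps between replicates. In G2/M, the 2 WT arrays stood apart from each other, and the TregΔ142 arrays mostly lay between them. WT replicate 2 was above WT replicate 1 for all 23 genes (100%, against 51.4% of all tested probe sets).

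**Figure D1:**
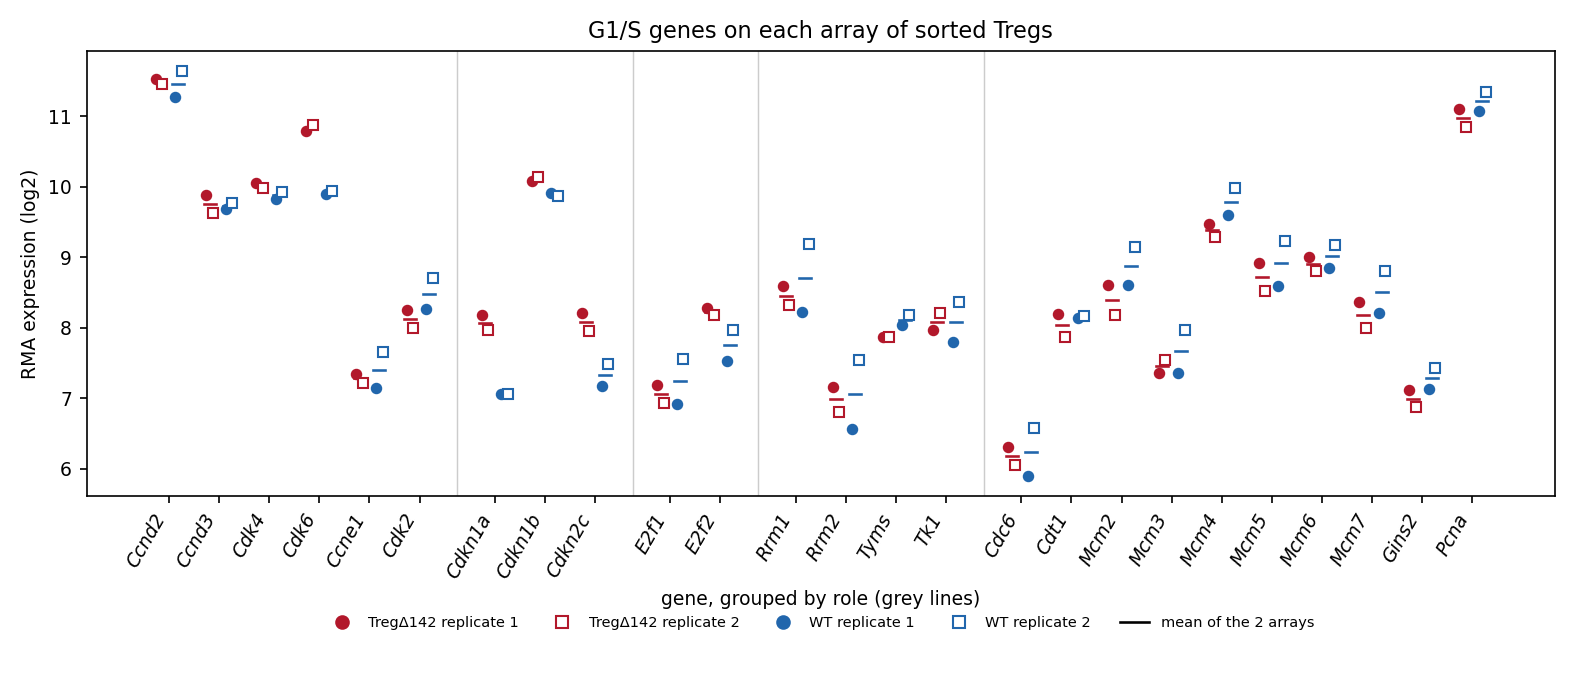
RMA expression (log2, vertical axis) of the 25 measured G1/S genes on the 2 TregΔ142 arrays (red) and the 2 WT arrays (blue), with filled circles for replicate 1, open squares for replicate 2, short bars for the mean of each group and grey lines between role groups. Cdk6, Cdkn1a and Cdkn2c have both red points above both blue points, and for most S phase genes, on the right, the open blue square is the top point.

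Among the 25 G1/S genes, 4 were higher at an unadjusted p below 0.05, which is 16% of them against 6.82% of all tested probe sets. These were Cdk6, Cdkn1a, Cdkn2c and E2f2. Only Mcm4 was lower at that level, 4% of them against 4.85% of all. Without overlap between the groups' arrays were 6 genes higher in TregΔ142 (24%, against 23.9% of all probe sets) and 4 lower ones (16%, against 19.8%), so these counts lay near or below the background.

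Cdk6, the kinase that pairs with D-type cyclins, stood at 10.80 and 10.88 in TregΔ142 replicates 1 and 2, against 9.90 and 9.94 in WT replicates 1 and 2. Both TregΔ142 arrays were above both WT arrays, and replicates lay within 0.08 of each other in TregΔ142 and 0.04 in WT. The difference was 0.92 ± 0.11 (SE, n = 2 each), a 1.89-fold higher level with a 95% interval of 0.65 to 1.20, and its adjusted p was 0.0706. Cdk4, the related kinase, stood at 10.06 and 9.99 in TregΔ142, against 9.83 and 9.93 in WT, a difference of 0.14 ± 0.12 (adjusted p = 0.685).

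The D-type and E-type cyclin genes showed no such separation. Ccnd2 (cyclin D2) stood at 11.53 and 11.47 in TregΔ142, against 11.28 and 11.65 in WT. Ccnd3 (cyclin D3) stood at 9.89 and 9.63 in TregΔ142, against 9.69 and 9.78 in WT. For both genes the groups overlapped, and the differences were 0.03 and 0.02. Ccne1, whose product cyclin E1 drives entry into S phase, also overlapped, at 7.35 and 7.23 in TregΔ142 and 7.15 and 7.65 in WT. Its partner kinase gene Cdk2 averaged 8.13 ± 0.18 in TregΔ142 and 8.48 ± 0.31 in WT (SD, n = 2 each), and the groups did not overlap (difference −0.35, adjusted p = 0.511).

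All 3 CDK inhibitor genes stood above WT on both TregΔ142 arrays (100%, against 23.9% of all tested probe sets), with a median difference of 0.75. Cdkn1a encodes p21, which binds and inhibits cyclin-CDK complexes and is a target of p53. It stood at 8.18 and 7.97 in TregΔ142, against 7.06 and 7.07 in WT, so the groups lay far apart compared with the 0.01 between the WT arrays. The difference was 1.01 ± 0.13 (2.02-fold, 95% interval 0.71 to 1.31, adjusted p = 0.0706). Cdkn2c encodes p18, an inhibitor of CDK4 and CDK6, and stood at 8.21 and 7.95 in TregΔ142, against 7.18 and 7.49 in WT. Its arrays did not overlap either, with a difference of 0.75 ± 0.16 (1.68-fold, adjusted p = 0.181). Cdkn1b, for p27, a brake on cyclin E with CDK2 in resting T cells, stood at 10.08 and 10.14 in TregΔ142, against 9.91 and 9.88 in WT, a small gap of 0.22 ± 0.11 (adjusted p = 0.51).

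Cdk6 and Cdkn1a missed the threshold in the main test and passed it in 2 of 12 alternatives. When the variance prior followed intensity, their adjusted p was 0.0236 and 0.0384, and with only the probe sets above the median level it was 0.0386 for both. Over all alternatives it ran from 0.0236 to 0.505 for Cdk6 and from 0.0384 to 0.514 for Cdkn1a. Their differences, which only centring and leaving out an array could move, stayed between 0.87 and 0.96 and between 0.91 and 1.11.

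The 2 E2F genes did not move together. E2f2 stood at 8.28 and 8.18 in TregΔ142, against 7.54 and 7.97 in WT, without overlap and with a difference of 0.48 ± 0.17 (adjusted p = 0.363). E2f1 stood at 7.19 and 6.94 in TregΔ142, against 6.92 and 7.57 in WT, with the WT arrays on either side of both TregΔ142 arrays.

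For the S phase genes, the side of 0 depended on WT replicate 2. Of the 14 measured genes of nucleotide synthesis, origin licensing and the replication fork, 13 (92.9%) had a difference below 0, against 47.5% of all tested probe sets, with a median of −0.22, against 0.01 over all. Without WT replicate 2, 7 of the 14 (50%) were below 0, against 47.2% of all probe sets, and the median was 0.02. None passed the threshold. The 6 minichromosome maintenance genes, which encode the subunits of the replicative helicase, were all below 0 over the 4 arrays, from −0.48 to −0.11, and 3 of the 6 were below 0 without WT replicate 2, where Mcm3 stood at 0.09, Mcm5 at 0.12 and Mcm6 at 0.06.

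Mcm4 stood at 9.48 and 9.30 in TregΔ142, against 9.60 and 9.99 in WT. It was the only one of the 6 minichromosome maintenance genes whose groups did not overlap (16.7%, against 19.8% of all probe sets). Its difference was −0.40 ± 0.16 (adjusted p = 0.423). Mcm2 stood at 8.61 and 8.19 in TregΔ142, against 8.61 and 9.15 in WT, a difference of −0.48 ± 0.22 (adjusted p = 0.468). WT replicate 2 was the highest array for both. Mcm5, at 8.92 and 8.53 in TregΔ142 and 8.60 and 9.24 in WT, and Mcm3, at 7.36 and 7.55 in TregΔ142 and 7.36 and 7.97 in WT, had the same highest array, as did Mcm6 and Mcm7.

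Pcna, the sliding clamp of the polymerases, stood at 11.10 and 10.85 in TregΔ142, against 11.08 and 11.35 in WT. Gins2, a subunit of the active helicase complex, stood at 7.12 and 6.87 in TregΔ142, against 7.14 and 7.43 in WT. Their differences were −0.24 and −0.29, with overlap for Pcna alone. The origin licensing factor genes Cdc6 and Cdt1 differed by −0.05 and −0.12, and both overlapped between the groups.

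For 3 of the 4 nucleotide synthesis genes, the gap inside WT was wider than the difference between the groups, and Tyms was the exception. The same held for 12081 of the 23521 tested probe sets. Rrm1 and Rrm2 encode the subunits of ribonucleotide reductase, which makes deoxyribonucleotides. Rrm1 stood at 8.59 and 8.33 in TregΔ142, against 8.23 and 9.19 in WT. Rrm2 stood at 7.16 and 6.81 in TregΔ142, against 6.57 and 7.55 in WT. In both, WT replicate 1 was the lowest array and WT replicate 2 the highest, 1.95-fold and 1.98-fold apart. The second Rrm2 probe set stood at 3.25 and 3.19 in TregΔ142 and at 3.04 and 3.26 in WT. Tk1, for thymidine kinase, showed this order as well, at 7.97 and 8.21 in TregΔ142 and 7.80 and 8.37 in WT. Tyms, for thymidylate synthase, stood at 7.88 and 7.87 in TregΔ142, against 8.04 and 8.18 in WT, a difference of −0.24 ± 0.12 without overlap (adjusted p = 0.501).

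Across the G1/S genes, WT replicate 2 was above WT replicate 1 in 24 of 25 (96%, against 51.4% of all tested probe sets). The median gap was 0.39, and it was 2-fold or more in no gene. The TregΔ142 arrays differed by a median of −0.24 (replicate 2 minus replicate 1). Replicate 1 was above in 21 of 25 (84%, against 50.7% of all tested probe sets). For 7 genes (Ccnd2, Ccne1, E2f1, Rrm1, Rrm2, Tk1 and Cdc6) both TregΔ142 arrays lay between the WT arrays, with WT replicate 2 at the top. That is 28%, against 6.72% of all tested probe sets.

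**Figure D2:**
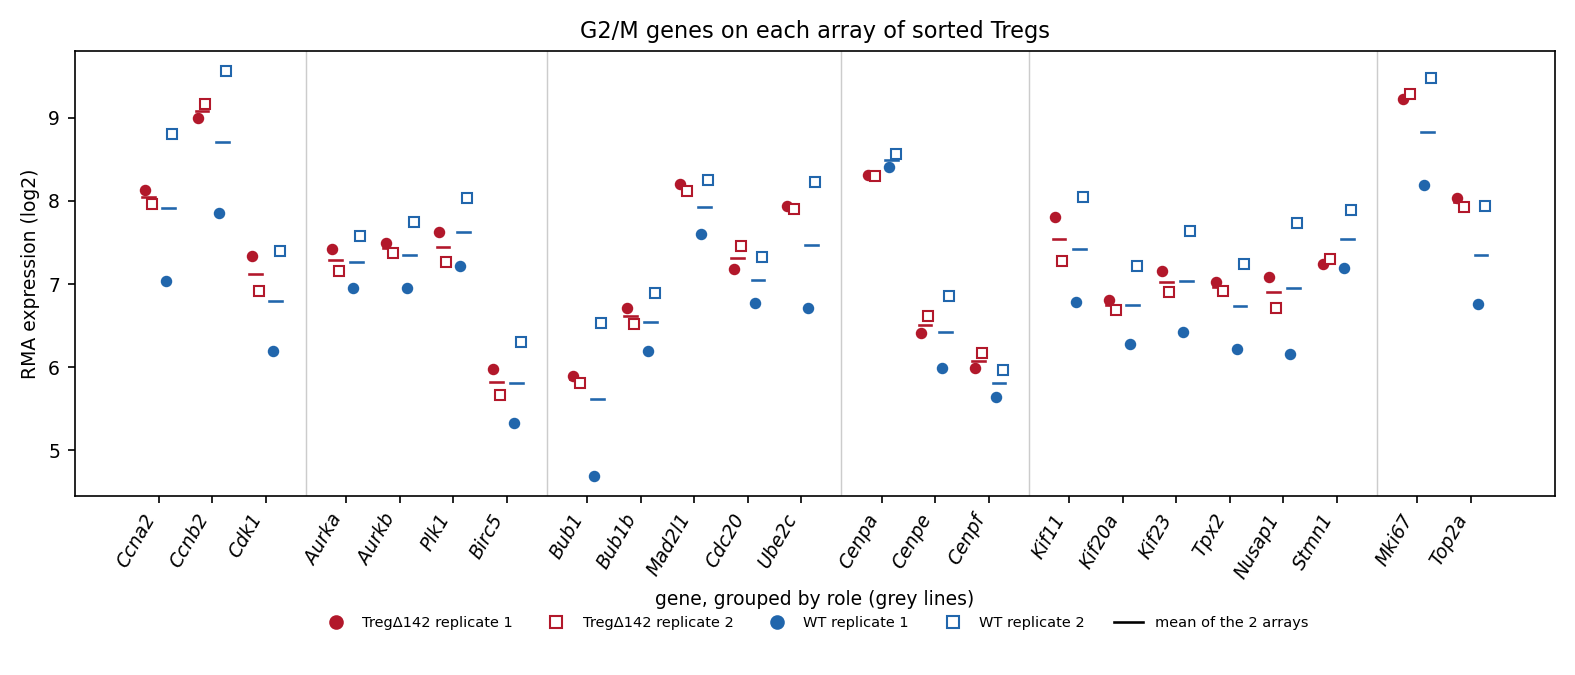
RMA expression (log2, vertical axis) of the 23 measured G2/M genes on the 2 TregΔ142 arrays (red) and the 2 WT arrays (blue), with filled circles for replicate 1, open squares for replicate 2, short bars for the mean of each group and grey lines between role groups. The filled blue circle is the lowest point and the open blue square the highest for 19 of the 23 genes, with the red points between them.

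In the G2/M group, the gap within WT exceeded the difference between TregΔ142 and WT for 22 of 23 genes. Over all tested probe sets this held for 12081 of 23521. None of the 23 reached an unadjusted p below 0.05 in either direction, against 6.82% higher and 4.85% lower over all probe sets, and adjusted p ran from 0.545 to 1. The median difference was 0.13, with 18 genes above 0, against 12349 of the 23521 tested probe sets. The mean level of the 23 genes was 7.39 and 7.28 in TregΔ142 replicates 1 and 2, against 6.68 and 7.70 in WT replicates 1 and 2. WT replicate 1 was thus the lowest array and WT replicate 2 the highest.

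The gap between the WT arrays (replicate 2 minus replicate 1) had a median of 0.97 and ran from 0.16 to 1.83. It was 2-fold or more for 11 of the 23 genes (47.8%), against 0.298% of all tested probe sets, whose median gap was 0.01. The TregΔ142 arrays differed by a median of −0.11 (replicate 2 minus replicate 1), from −0.52 to 0.28, and in no gene by 2-fold. In 19 genes (82.6%, against 6.72% of all probe sets) WT replicate 2 was the highest and WT replicate 1 the lowest of the 4 arrays. The exceptions were Cdc20, Cenpa, Cenpf and Top2a.

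Bub1, a kinase of the spindle checkpoint that holds anaphase until chromosomes are attached, had the widest gap. It stood at 5.90 and 5.81 in TregΔ142, against 4.70 and 6.53 in WT, so WT replicate 2 was 3.57-fold above WT replicate 1. Both TregΔ142 arrays lay between them, and the difference between the groups was 0.24 ± 0.52 (adjusted p = 0.895). Its partner gene Bub1b stood at 6.71 and 6.52 in TregΔ142, against 6.20 and 6.89 in WT. Mad2l1, of the same checkpoint, stood at 8.21 and 8.12 in TregΔ142 and at 7.60 and 8.25 in WT. All 3 had WT arrays at both ends. The mean level of Bub1 over the 4 arrays was 5.73, below the median of 6.28 over all tested probe sets. Of the other measured G2/M genes, only Birc5 and Cenpf had a mean level below it.

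The mitotic cyclins and their kinase showed the same order. Ccnb2 (cyclin B2) stood at 8.99 and 9.16 in TregΔ142, against 7.85 and 9.56 in WT, a gap of 3.26-fold within WT and a difference of 0.37 ± 0.49 between the groups (adjusted p = 0.811). Ccna2 (cyclin A2) stood at 8.12 and 7.97 in TregΔ142, against 7.04 and 8.80 in WT, 3.39-fold apart within WT. Cdk1, the kinase that both cyclins activate, stood at 7.33 and 6.91 in TregΔ142, against 6.20 and 7.40 in WT. The gap within WT was over 2-fold for each of the 3 genes.

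Ube2c, the ubiquitin-conjugating enzyme of the anaphase-promoting complex, stood at 7.94 and 7.90 in TregΔ142, against 6.71 and 8.23 in WT. The TregΔ142 arrays agreed within 0.05 while the WT arrays were 2.86-fold apart, and the difference was 0.45 ± 0.44 (adjusted p = 0.733). Cdc20, which activates that complex, departed from the order, at 7.18 and 7.45 in TregΔ142 and 6.77 and 7.32 in WT, with TregΔ142 replicate 2 at the top.

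Mki67, the gene of the proliferation marker Ki-67, stood at 9.23 and 9.29 in TregΔ142, against 8.18 and 9.48 in WT. Its difference was 0.43 ± 0.38 (adjusted p = 0.706), with a gap of 2.46-fold within WT. Top2a, the topoisomerase that untangles chromosomes, stood at 8.04 and 7.93 in TregΔ142, against 6.76 and 7.94 in WT. It had the largest difference among the 23 genes, 0.63 ± 0.35 (adjusted p = 0.546), and in it TregΔ142 replicate 1 was the highest array and WT replicate 1 stood alone at the bottom.

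The mitotic kinases had smaller gaps. Plk1 stood at 7.63 and 7.27 in TregΔ142, against 7.22 and 8.04 in WT. Aurkb, the catalytic subunit of the chromosomal passenger complex, stood at 7.50 and 7.38 in TregΔ142, against 6.95 and 7.74 in WT. Birc5 (survivin), its partner, stood at 5.98 and 5.66 in TregΔ142 and at 5.33 and 6.30 in WT. These genes and Aurka had differences between −0.18 and 0.09, and all 4 had WT arrays at both ends.

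Among the 6 genes of spindle motors and microtubule proteins, Nusap1 had the widest gap. It stood at 7.08 and 6.71 in TregΔ142, against 6.16 and 7.74 in WT. Kif11, the motor that pushes spindle poles apart, stood at 7.81 and 7.28 in TregΔ142, against 6.79 and 8.04 in WT, and had the widest gap of any G2/M gene within TregΔ142. Kif23, a motor of the central spindle, stood at 7.15 and 6.90 in TregΔ142, against 6.42 and 7.64 in WT. The group also held Kif20a, Tpx2 and Stmn1, its median difference was −0.00 and its median gap within WT was 1.12, with WT arrays at both ends for all 6.

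The centromere and kinetochore genes were the least uniform. Cenpa, the histone H3 variant that marks the centromere, stood at 8.32 and 8.30 in TregΔ142, against 8.41 and 8.57 in WT, and was the only G2/M gene with both TregΔ142 arrays below both WT arrays. Cenpf stood at 5.99 and 6.17 in TregΔ142, against 5.64 and 5.97 in WT, and was the only one with both above. These single genes are 4.35% each of the 23, against 19.8% lower and 23.9% higher over all probe sets, and neither passed the test (adjusted p = 0.613 for Cenpa and 0.545 for Cenpf). Cenpe, a kinetochore motor, stood at 6.41 and 6.62 in TregΔ142 and at 5.99 and 6.86 in WT.

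Since the G2/M genes differed together between the WT arrays, promoter sequences are shown for 4 genes with wide gaps, with 2 S phase genes and Cdkn1a for contrast. The 4 were not taken strictly by gap. Nusap1, with a gap of 1.58, wider than those of Ube2c and Mki67, is not shown and holds none of the 3 motifs. Each runs 5′ to 3′ on the strand of the gene, from 250 bases before to 50 bases after the start of transcription, and comes from RefSeq on GRCm38.p6. Capitals mark 3 motifs, searched on both strands: the CCAAT box (letters CCAAT), bound by NF-Y; the cell cycle homology region (TTTGAA or TTCGAA), bound by LIN54 of the MuvB complex; and the E2F site (TTCCCGC or TTGGCGC or TTCGCGC or TTGCCGC). On the other strand the CCAAT box reads ATTGG, which may share its last letters with an E2F site, and such overlaps count for both. Ccnb2 lies at chr9:70421505-70421804 (minus strand), Bub1 at chr2:127831810-127832109 (minus), Ube2c at chr2:164769679-164769978 (plus) and Mki67 at chr7:135716330-135716629 (minus).
Ccnb2: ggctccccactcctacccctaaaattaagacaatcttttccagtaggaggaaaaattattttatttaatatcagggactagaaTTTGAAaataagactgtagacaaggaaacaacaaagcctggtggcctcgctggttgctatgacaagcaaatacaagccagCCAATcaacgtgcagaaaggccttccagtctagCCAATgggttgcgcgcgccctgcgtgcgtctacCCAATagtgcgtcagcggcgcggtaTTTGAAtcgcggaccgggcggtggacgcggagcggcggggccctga
Bub1: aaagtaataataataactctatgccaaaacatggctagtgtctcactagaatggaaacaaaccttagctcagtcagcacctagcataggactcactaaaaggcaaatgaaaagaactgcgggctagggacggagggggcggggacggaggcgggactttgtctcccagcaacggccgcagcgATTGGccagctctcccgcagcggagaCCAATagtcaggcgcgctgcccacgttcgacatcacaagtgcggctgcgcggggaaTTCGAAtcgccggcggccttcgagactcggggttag
Ube2c: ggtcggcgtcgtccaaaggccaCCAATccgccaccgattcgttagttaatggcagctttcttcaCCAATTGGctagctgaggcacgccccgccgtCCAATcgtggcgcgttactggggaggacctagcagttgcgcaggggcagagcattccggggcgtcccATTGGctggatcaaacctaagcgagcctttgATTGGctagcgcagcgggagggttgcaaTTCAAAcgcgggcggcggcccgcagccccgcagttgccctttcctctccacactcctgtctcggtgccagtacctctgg
Mki67: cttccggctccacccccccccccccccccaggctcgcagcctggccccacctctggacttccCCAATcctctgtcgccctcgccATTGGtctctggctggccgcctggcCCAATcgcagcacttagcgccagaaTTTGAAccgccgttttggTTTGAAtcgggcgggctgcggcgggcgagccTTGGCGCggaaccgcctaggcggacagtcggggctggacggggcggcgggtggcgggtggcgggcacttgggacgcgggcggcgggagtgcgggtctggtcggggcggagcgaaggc
In Ccnb2, the proximal cell cycle homology region spans bases 5 to 10 after the start, behind 3 CCAAT boxes that begin at positions −87, −54 and −21 from it. In Bub1 it spans bases 15 to 20 after the start. In Ube2c it is on the other strand, and in Mki67 there are 2 copies, with an E2F site nearer the start.

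For S phase, Rrm1 lies at chr7:102441445-102441744 (plus) and Mcm5 at chr8:75109259-75109558 (plus). Cdkn1a has 2 annotated starts, and the second is shown, at chr17:29093519-29093818 (plus).
Rrm1: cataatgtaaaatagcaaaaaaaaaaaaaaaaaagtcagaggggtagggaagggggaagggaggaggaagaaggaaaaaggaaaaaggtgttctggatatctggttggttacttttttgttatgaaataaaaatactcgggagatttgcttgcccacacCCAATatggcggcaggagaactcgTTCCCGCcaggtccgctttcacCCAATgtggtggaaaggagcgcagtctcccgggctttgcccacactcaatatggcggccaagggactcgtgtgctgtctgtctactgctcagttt
Mcm5: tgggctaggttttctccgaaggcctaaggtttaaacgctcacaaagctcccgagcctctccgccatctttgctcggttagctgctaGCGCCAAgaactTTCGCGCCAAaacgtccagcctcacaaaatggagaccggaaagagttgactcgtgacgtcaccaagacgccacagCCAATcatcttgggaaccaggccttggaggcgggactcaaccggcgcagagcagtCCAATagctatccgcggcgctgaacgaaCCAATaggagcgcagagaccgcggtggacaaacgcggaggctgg
Cdkn1a: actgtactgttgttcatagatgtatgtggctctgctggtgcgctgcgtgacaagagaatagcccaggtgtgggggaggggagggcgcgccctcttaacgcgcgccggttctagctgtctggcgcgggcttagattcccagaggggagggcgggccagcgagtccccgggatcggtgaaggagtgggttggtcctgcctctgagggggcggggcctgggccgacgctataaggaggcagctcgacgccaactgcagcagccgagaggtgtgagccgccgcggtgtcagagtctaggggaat
Mcm5 holds 3 E2F matches, 2 of which overlap each other, Rrm1 holds 1, and neither start of Cdkn1a holds any of the 3 motifs. Cdk6 holds none either.

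**Figure D3:**
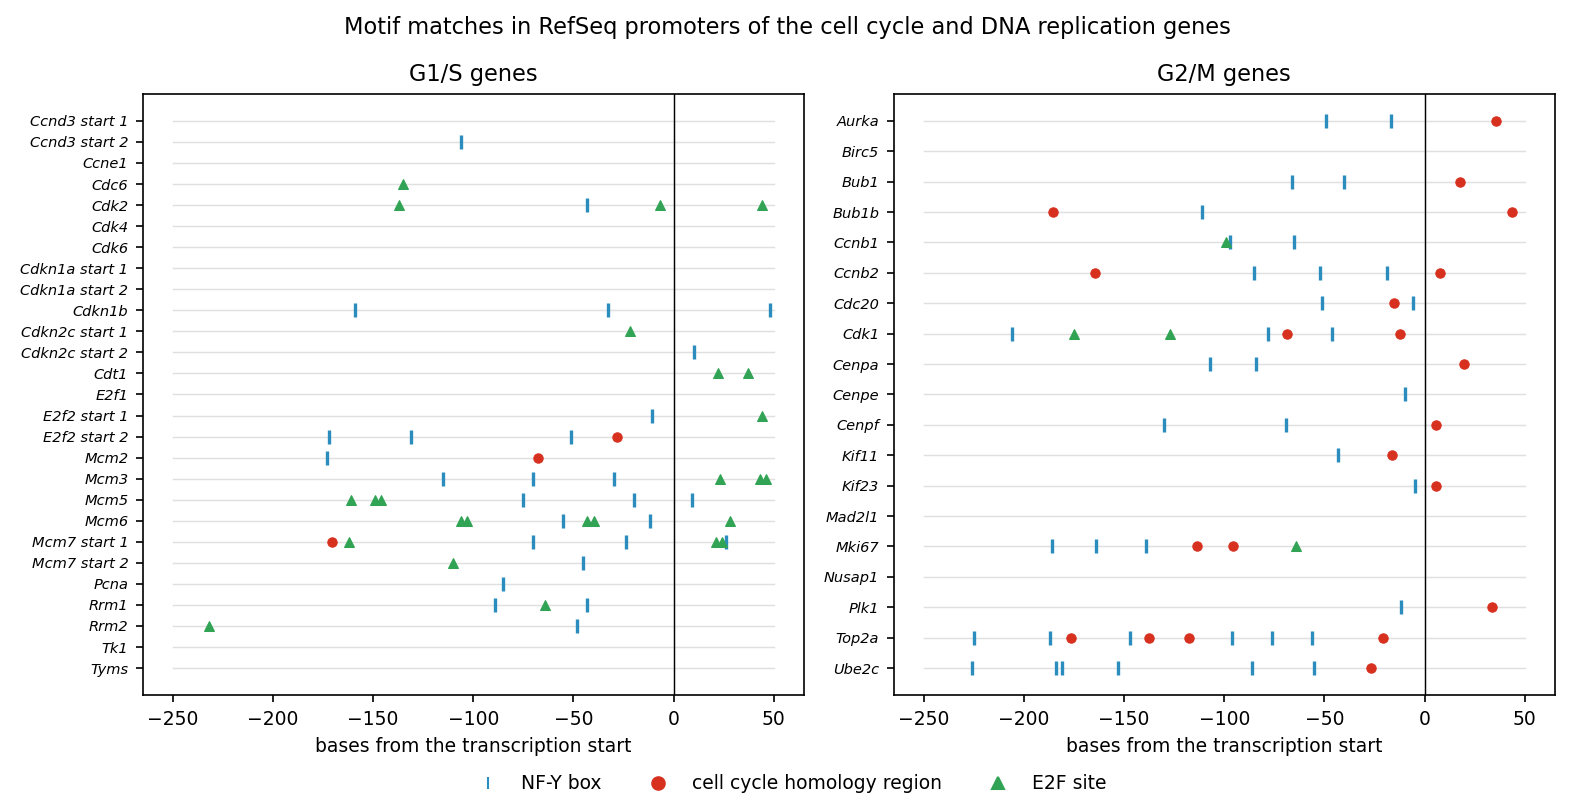
Positions of motif matches in the promoters of the G1/S genes (left, 22 genes) and the G2/M genes (right, 19 genes), in bases from the start of transcription (horizontal axis, black line at the start), 1 row per annotated start. Blue bars are CCAAT boxes (named NF-Y box in the key), red circles cell cycle homology regions and green triangles E2F sites, and red circles gather near the start in the right panel.

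A promoter was matched for 41 of the 50 genes, 22 G1/S and 19 G2/M. Ccnd2, Ccne2, Mcm4, Gins2, Ccna2, Aurkb, Kif20a, Tpx2 and Stmn1 were not matched. A cell cycle homology region was present in 14 of 19 G2/M genes (73.7%), against 13.6% of G1/S genes and 21.7% of all 27025 genes with a promoter. All 14 also held a CCAAT box, a pair found in 9.65% of all genes. An E2F site was present in 11 of 22 G1/S genes (50%) and in 15.8% of G2/M genes, against 10.9% of all genes. CCAAT boxes were present in 84.2% of G2/M genes, 59.1% of G1/S genes and 41.1% of all genes.

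Of 21 cell cycle homology matches in G2/M promoters, 13 lay within 60 bases of the start, each in a different gene. The measured G2/M genes with a match anywhere in the promoter had a median gap between the WT arrays of 1.19 (n = 14, from 0.16 to 1.83). The 4 without (Nusap1, Birc5, Mad2l1 and Cenpe) had one of 0.92, from 0.64 to 1.58. The G1/S genes with an E2F site had a median gap of 0.60 (n = 11, from 0.03 to 0.99), against 0.14 for those without (n = 11, from −0.03 to 0.64). Those without included Cdk4, Cdk6, Ccnd3, Cdkn1a and Cdkn1b, so this split cannot be told apart from one by role. These are descriptions over genes that share the same arrays, and a match of letters does not show that a factor binds there.

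The direction of the G2/M genes between TregΔ142 and WT depended on which WT array was used. Without WT replicate 1 their median difference was −0.31, with 2 of 23 genes above 0 and 21 below, against 48.3% of all tested probe sets below 0. Without WT replicate 2 it was 0.56, with 22 of 23 above 0 and 1 below, against 47.2% of all tested probe sets below 0. The G1/S median also turned, to −0.37 without WT replicate 1 and 0.13 without WT replicate 2. Of the 25 genes, 19 and 8 were below 0, against the same shares over all probe sets. With an array left out, its group has 1 array, which is assumed to vary like the other group.

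**Figure D4:**
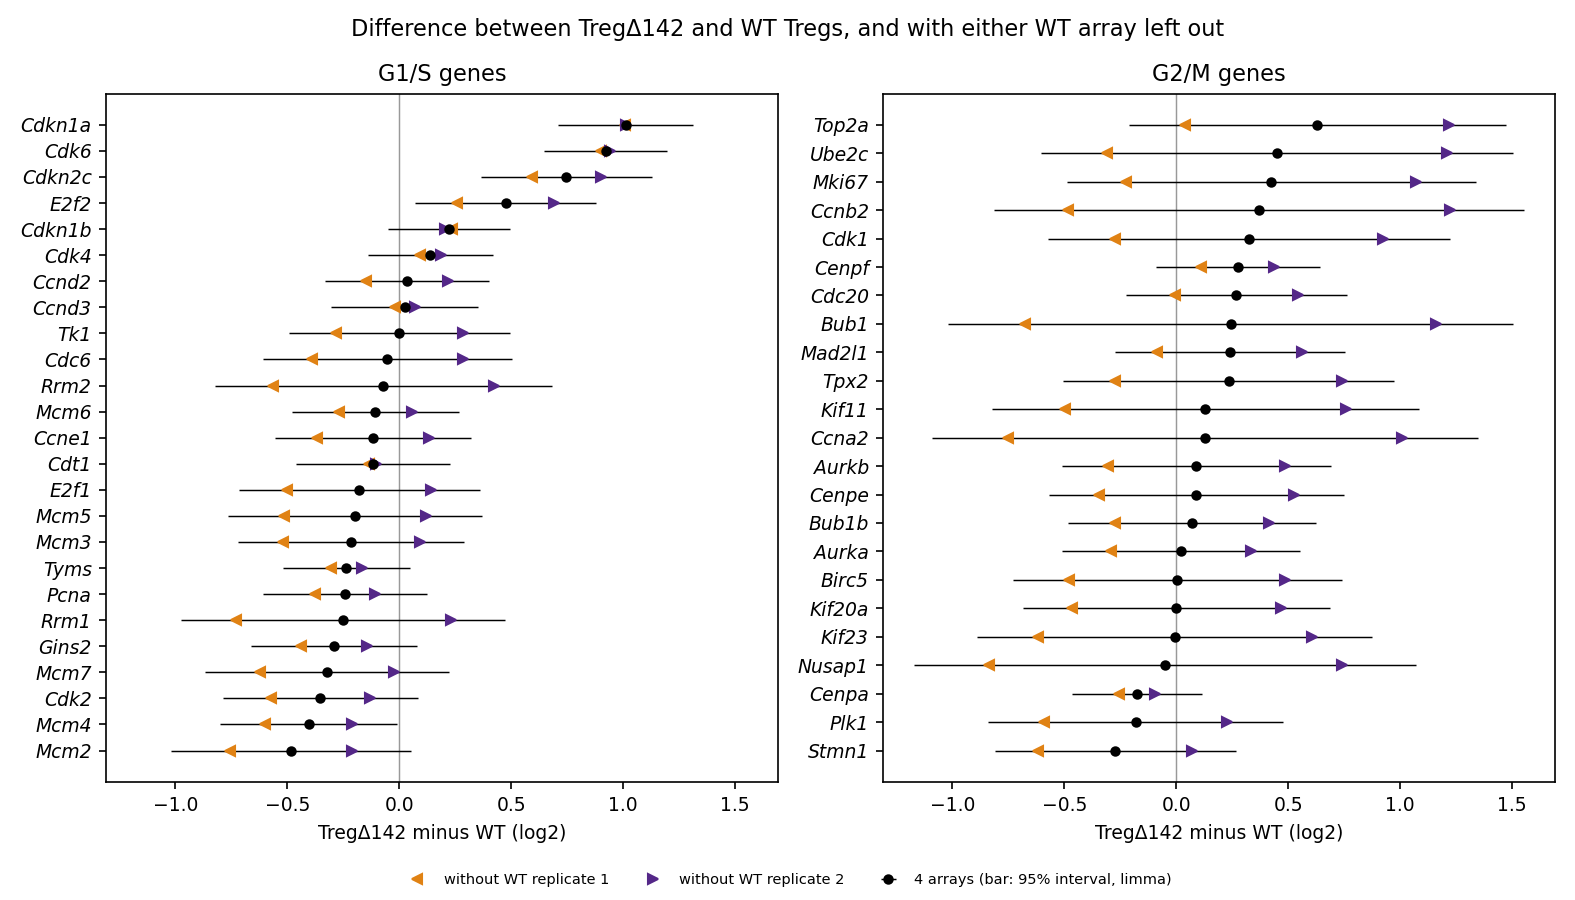
Difference between TregΔ142 and WT (log2, horizontal axis) for each G1/S gene (left) and G2/M gene (right), over all 4 arrays (black points, with 95% limma intervals), without WT replicate 1 (orange, pointing left) and without WT replicate 2 (purple, pointing right). The markers of Cdkn1a and Cdk6 lie almost on each other near 1.01 and 0.92, whereas those of Bub1 lie at −0.67 and 1.16.

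The named genes fell into the same 2 kinds. Without WT replicate 1 the difference was −0.22 for Mki67, −0.48 for Ccnb2, −0.31 for Ube2c and −0.67 for Bub1. Without WT replicate 2 it was 1.07 for Mki67, 1.22 for Ccnb2, 1.21 for Ube2c and 1.16 for Bub1. Top2a stayed above 0, at 0.04 and 1.22. By contrast, leaving out each of the 4 arrays in turn moved Cdk6 only between 0.88 and 0.96, Cdkn1a between 0.91 and 1.11 and Cdkn2c between 0.59 and 0.90. E2f2 ranged from 0.26 to 0.69 and Mcm4 from −0.60 to −0.21.

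Wider lists of the same pathways, without the members, were read in the same fit. Of 48 other G1/S genes, 45 were measured, with a median difference of −0.15. None was higher at an unadjusted p below 0.05, against 6.82% of all probe sets, and 1 was lower (2.22%, against 4.85%), namely Pold1, the catalytic subunit of DNA polymerase delta. It stood at 7.67 and 7.39 in TregΔ142, against 8.03 and 8.56 in WT, without overlap (difference −0.77, adjusted p = 0.252). The next by p were Chaf1b (0.47), Lig1 (−0.42) and Gmnn (−0.28). Their WT arrays differed by a median of 0.51, with WT replicate 2 above in 43 of 45 (95.6%, against 51.4% of all probe sets).

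Of 63 other G2/M genes, 59 were measured, with a median difference of 0.05. At an unadjusted p below 0.05, 2 were higher (3.39%, against 6.82% of all probe sets) and 1 was lower (1.69%, against 4.85%), both below the background. Prc1, which bundles microtubules of the central spindle, stood at 7.73 and 7.63 in TregΔ142, against 6.74 and 7.24 in WT (difference 0.69, adjusted p = 0.253). Ttk, a checkpoint kinase gene, had a difference of 0.41, Pttg1 (securin) one of −0.36 and Bora one of −0.33. WT replicate 2 was above WT replicate 1 in 55 of the 59 (93.2%, against 51.4% of all probe sets), by a median of 0.55. In 41 of them (69.5%, against 6.72% of all probe sets) WT replicate 1 was the lowest array and WT replicate 2 the highest.

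The other genes that hold cells in G1 or quiescence, 17 in all, did not share this gap within WT, whose median was −0.00. Their median difference between the groups was −0.02, with 1 higher and 1 lower at an unadjusted p below 0.05 (5.88% each, against 6.82% and 4.85% of all probe sets). Cdkn1c, which encodes the CDK inhibitor p57, stood at 7.39 and 6.97 in TregΔ142, against 6.35 and 5.91 in WT, without overlap (difference 1.04 ± 0.20, adjusted p = 0.153). Rb1, the retinoblastoma gene, stood at 10.66 and 10.63 in TregΔ142, against 11.07 and 11.09 in WT, also without overlap (difference −0.44 ± 0.11, adjusted p = 0.246). Cdkn2b (0.25) and Lin54 (−0.28) were next by p.

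Histone genes, most of which are made in S phase, were taken by symbol, 29 in all. H1f0 and H1f10, which are not restricted to S phase, are among them. The others were not checked for this, and near-identical copies make single values uncertain. Their median difference was −0.07. At an unadjusted p below 0.05, 5 were higher (17.2%, against 6.82% of all probe sets) and 0 were lower (against 4.85%), and limma called none after adjustment. The leading genes were H2bc21 (1.10), H2bc12 (0.70), H2bc22 (0.35) and H1f10 (0.37). H2bc21 stood at 7.05 and 6.51 in TregΔ142, against 5.45 and 5.91 in WT, without overlap.

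**Figure D5:**
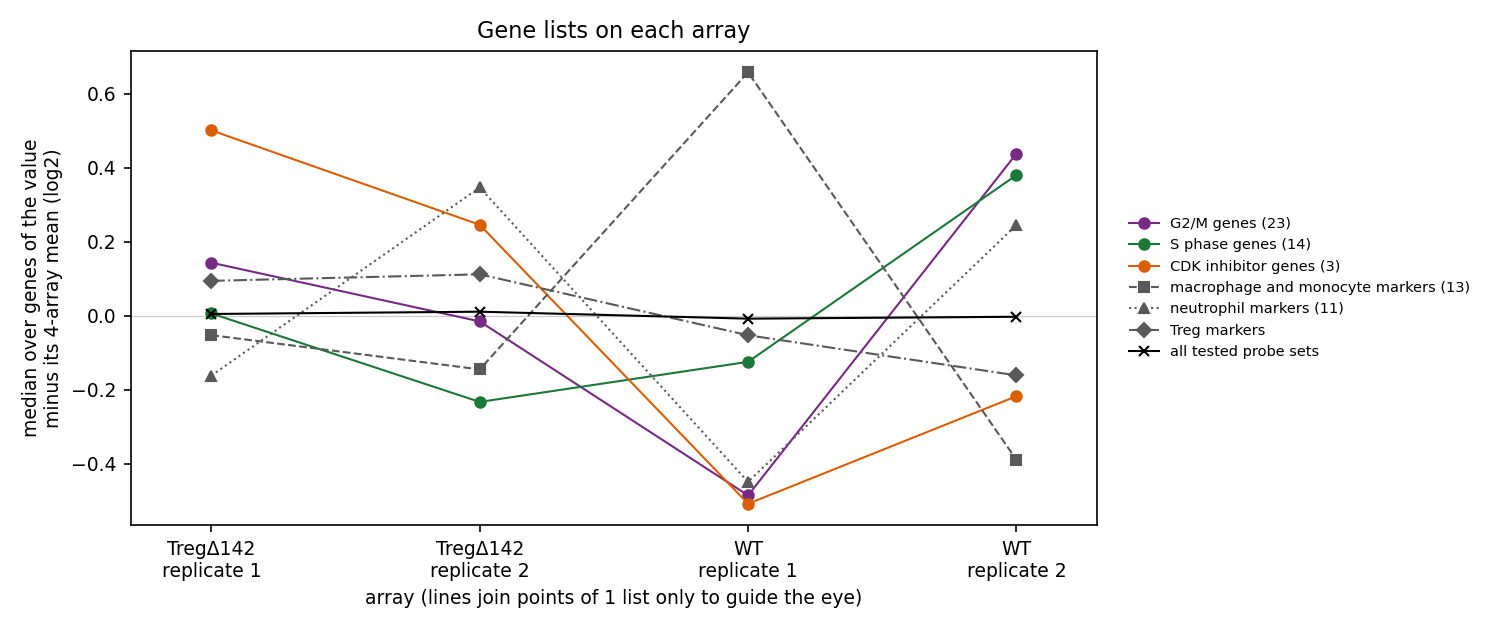
Median over the genes of a list of each gene's value minus its mean over the 4 arrays (log2, vertical axis), on the 2 TregΔ142 arrays and then the 2 WT arrays, for G2/M, S phase and CDK inhibitor genes (coloured), for 3 marker lists (grey) and for all tested probe sets (black). G2/M genes are lowest on WT replicate 1 (−0.49) and highest on WT replicate 2 (0.44), macrophage and monocyte markers run the opposite way between these arrays (0.66 and −0.39), and CDK inhibitor genes are above 0 on both TregΔ142 arrays.

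Markers of other cell types moved along with the gap between the WT arrays. Macrophage and monocyte markers (13 of 14 measured) had a mean level of 7.13 and 6.91 in TregΔ142 replicates 1 and 2, against 7.71 and 6.69 in WT replicates 1 and 2. WT replicate 2 was below WT replicate 1 by a median of 0.91, opposite to the G2/M genes. Of the 13, 6 were lower by 2-fold or more, against 75 of the 23521 tested probe sets. Adgre1, which encodes the macrophage antigen F4/80, stood at 6.17 and 5.53 in TregΔ142, against 7.35 and 5.83 in WT. Lyz2 was the only 1 of the 13 with WT replicate 2 above WT replicate 1, at 9.31 and 8.68 in TregΔ142, against 8.05 and 8.64 in WT. Neutrophil markers (11) had a mean level of 6.20 and 6.67 in TregΔ142, against 5.86 and 6.72 in WT, with WT replicate 2 above WT replicate 1 by a median of 0.80. The part of these cells in the G2/M and S phase values was not tested.

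The other 8 marker lists had a median gap between the WT arrays from −0.22 (B cells) to 0.34 (CD8 T cells). NK cell markers (6 of 7 measured) moved with the groups instead, with a mean level of 6.47 and 6.56 in TregΔ142, against 5.82 and 5.90 in WT, and 3 of the 6 were higher at an unadjusted p below 0.05 (Eomes, Nkg7 and Gzma), which is 50% of them against 6.82% of all probe sets. Their mean was above WT on both TregΔ142 arrays, as were Cdk6 and the CDK inhibitor genes. Of the NK cell defining markers, Ncr1 stood at 5.52 and 5.60 in TregΔ142 and at 5.46 and 5.39 in WT, and Klrb1c at 4.63 and 4.81 in TregΔ142 and at 4.86 and 4.40 in WT. The mean of the platelet markers was also above WT on both TregΔ142 arrays, at 6.32 and 6.34 in TregΔ142, against 5.85 and 6.04 in WT. Of the 4 measured, 2 were higher at an unadjusted p below 0.05, Ppbp by 0.85 and Gp9 by 0.38, while the defining marker Pf4 averaged 4.94 ± 0.087 in TregΔ142 and 4.73 ± 0.18 in WT (SD, n = 2 each). Without overlap between the groups, 5 of 6 NK cell, 3 of 4 platelet and 3 of 6 plasma cell markers were higher in TregΔ142, against 23.9% of all probe sets, and 4 of 6 dendritic cell markers were lower, against 19.8%. The plasma cell markers without overlap were Prdm1 (0.73), Xbp1 (0.25) and Mzb1 (0.17). Jchain (−0.37), Tnfrsf17 (−0.05) and Sdc1 (0.10) overlapped between the groups. Whether these lists mark such cells or transcripts of the Tregs, and their part in the Cdk6 and Cdkn1a values, was not tested.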

How the data were processed

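RNA of sorted Tregs, from 2 TregΔ142 and 2 WT samples, was read on Affymetrix Mouse Gene ST arrays. The authors deposited log2 values made by RMA, in which background is corrected, quantile normalisation gives every array the same distribution, and the probes of a probe set become 1 value. An R package, oligo, is also named by the submitters, without its version. A change shared by most genes is removed by this step, and the table carries no detection calls, so a level near the low end of the scale cannot be told from background. The precision is set by the number of arrays.

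Probe sets were named from GEO's platform annotation. Of 41345 rows, 23521 had 1 gene symbol and were tested, 1820 had several and 16004 had none. Each gene kept its probe set with the highest mean over the 4 arrays. The 4 columns each belonged to 1 sample, and 0 columns of other samples were present. No filter on low values was used. TregΔ142 was compared with WT by limma 3.58.1 (lmFit and eBayes, R 4.3.3), two-sided, with Benjamini-Hochberg adjustment over all 23521 probe sets and a threshold of 0.05. The fit was tested on simulated data. Tables were handled with pandas 2.3.3 in Python 3.11.15.

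The members and the other gene lists were chosen with earlier results of these data known. All members are accounted for. Array values are given for those with the smallest p or the widest gaps between arrays in each role group, and for up to 4 genes of each other cell cycle list, taken by smallest p. Promoters are those of RefSeq on GRCm38.p6, with 250 bases before and 50 bases after a start, 32851 in all. Replicate numbers in the titles were not used to pair the arrays in the main test. Same-numbered arrays deviated from their group means with a correlation of −0.12, which cannot show whether they shared a litter or day. The labels name none. The alternatives were an intensity trend, the replicate number as a block, a filter at the median level, all rows and array centring. Others were an ordinary t-test with pooled variance for each probe set, the mean over a gene's probe sets and leaving out each array.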

Additional observations from a re-analysis of the deposited data

How the results depend on the processing

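The counts over all probe sets depended on the test. A change of test leaves a difference between group means as it is. Only centring, averaging of probe sets and leaving out arrays could move the differences of the cell cycle genes. At an adjusted p of 0.05 limma called 6 probe sets, against 115 with an intensity trend and 91 with only the probe sets above the median level. It called 2 over all rows, and an ordinary t-test with pooled variance called 0. At an unadjusted p below 0.05 the count was 2746, and 4126 over all rows. G1/S genes past the threshold numbered 2 with the trend and 2 with the median filter (Cdk6 and Cdkn1a each time), against 0. That filter left 44 of the 48 genes and fewer probe sets to adjust over; the cause of the other moves was not tested. G1/S genes lower at an unadjusted p below 0.05 numbered 1, against 0 over all rows and 0 by the t-test.

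With 1 array left out, calls over all probe sets ran from 0 (without either TregΔ142 array) to 128 (without WT replicate 1), with 46 without WT replicate 2, and unadjusted ones from 1819 to 2811. G1/S genes lower at an unadjusted p ran from 0 to 10 (without WT replicate 1). G2/M genes past the threshold ran from 0 to 1, those higher at an unadjusted p from 0 to 19 (without WT replicate 2) and those lower from 0 to 9 (without WT replicate 1). The differences ran from −0.22 to 1.07 for Mki67, −0.48 to 1.22 for Ccnb2, −0.31 to 1.21 for Ube2c and −0.67 to 1.16 for Bub1, the low end always without WT replicate 1. The G2/M median ran from −0.31 to 0.56 and the G1/S median from −0.37 to 0.13, the ends without WT replicate 1 and without WT replicate 2.

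With the replicate number as a block 5 probe sets were called and 0 G1/S genes were lower at an unadjusted p, and no other call among the cell cycle genes changed. The crossed pairing, added after seeing the data, gave 5 calls over all probe sets and 5 lower G1/S genes. Centring arrays on their medians turned the sign of 3 G1/S and 3 G2/M genes, and no median or call over the cell cycle genes changed side with it.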

Other observations

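The 6 probe sets with the widest excess of WT replicate 2 over WT replicate 1, chosen after their values were seen, were Dcpp2, Dcpp3, Scgb2b27, Dcpp1, Bpifa2 and Scgb1b27, which encode proteins known from the secretions of salivary and lacrimal glands. Dcpp2 stood at 10.58 and 8.91 in TregΔ142 replicates 1 and 2, against 3.83 and 11.55 in WT replicates 1 and 2. Bpifa2 stood at 10.41 and 9.44 in TregΔ142, against 7.55 and 11.58 in WT. All 6 had the array order of the G2/M mean, with WT replicate 2 highest, then TregΔ142 replicate 1, TregΔ142 replicate 2 and WT replicate 1. The choice by widest gap within WT largely puts the WT arrays at both ends, so only the order of the TregΔ142 arrays was free. The limma difference between the groups had an adjusted p of 0.757 for Dcpp2 and 0.935 for Bpifa2. The part of the tissue these genes mark in the gap between the WT arrays was not tested.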
